A study of Mus musculus with 48 samples.

Results

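The genes described here are 8 markers and chemokine receptors of monocytes, Ccr2, Ly6c2, Ly6c1, Cx3cr1, Ccr1, Cxcr4, Plac8 and Vcan, taken by name from the 24411 genes of the count table. All 8 were found, and all 8 passed the expression filter that left 12634 genes for testing. Ly6c1, Ly6c2 and Plac8 were at or near 0 counts in naive mice and passed only through the bleomycin groups, in which they were higher.

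RNA was sequenced from airspace macrophages obtained by bronchoalveolar lavage from 24 male mice, 12 wild type (WT) and 12 deficient in Siglec-F (KO), a sialic acid-binding receptor of mouse alveolar macrophages encoded by Siglecf. The naive mice of each genotype had saline and are labelled day 0, and the others had bleomycin (2.5 units/kg, route given as IT), a drug whose lung injury is followed by scarring, and were sampled on day 7, 14 or 21. Each of the 8 groups had 3 mice. All saline mice carry the day 0 label, so day and bleomycin cannot be told apart. The sources used here do not give the age or strain of the mice, the kind of Siglec-F deletion, or how macrophages were separated from other lavage cells. The study asked what Siglec-F does in these cells and in the fibrosis that follows the injury.

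Classical monocytes leave the bone marrow through CCR2, carry Ly6C on their surface and move into injured tissue, where many become macrophages. CX3CR1, the fractalkine receptor, is low on classical monocytes and higher on nonclassical monocytes and on many tissue macrophages, while alveolar macrophages of the resting airspace lack it. Levels are given as CPM, counts scaled to library size with TMM factors, and averages as mean ± SD over 3 mice. A gene was called when its edgeR quasi-likelihood p-value, adjusted by Benjamini-Hochberg over all 12634 genes, was under 0.05. These are bulk samples, so more or fewer cells of a type and more or less RNA per cell cannot be told apart.

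Library totals ran from 24877049 to 47457085 counts. Siglecf measured 403 to 481 CPM in WT naive mice and averaged between 0.0853 and 0.341 CPM in the 4 KO groups, and at each time all KO mice lay below all WT mice. The macrophage genes Csf1r, Adgre1, Mrc1 and Cd68 were present in every group, for example Cd68 at 1210 ± 45.6 CPM in WT naive mice and 1560 ± 128 CPM in WT mice at day 7. In both genotypes some libraries stood at one end of their group in most of the 8 genes: WT day 14 mouse 1 and KO day 7 mouse 3 were each the lowest of their group in 7, WT day 14 mouse 3 was the highest in 8, and WT day 21 mouse 3, KO naive mouse 1, KO day 14 mouse 3 and KO day 21 mouse 1 were each the lowest in 5. KO day 21 mouse 2 was the highest for Ccr2, Ly6c2, Ccr1, Plac8 and Vcan yet the lowest for Cx3cr1 and Cxcr4. That last mouse also had the highest summed level of T and NK cell genes (92 CPM, against 21.7 and 38.4) and of conventional dendritic cell genes (54.2 CPM, against 8.31 and 21.1) of its group.

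Ly6c1 and Ly6c2 are neighbouring genes on the minus strand of chromosome 15 (mm10, 75044018 to 75048830 and 75108158 to 75111970) whose products are similar small GPI-anchored surface proteins, and both are read as Ly6C. Their coding sequences are shown because the pair peaked at different days in these mice. In GENCODE M21 both have 396 coding bases (transcripts ENSMUST00000065408.15 and ENSMUST00000100542.9), of which 9 differ, a match of 97.7%. The first 270 coding bases follow, with the 7 of them that differ in capitals.
Ly6c1: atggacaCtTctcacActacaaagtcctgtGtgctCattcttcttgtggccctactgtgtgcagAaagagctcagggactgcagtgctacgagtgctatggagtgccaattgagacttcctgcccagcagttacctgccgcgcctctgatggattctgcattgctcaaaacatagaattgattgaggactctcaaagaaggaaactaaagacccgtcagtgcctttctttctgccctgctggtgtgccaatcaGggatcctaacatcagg
Ly6c2: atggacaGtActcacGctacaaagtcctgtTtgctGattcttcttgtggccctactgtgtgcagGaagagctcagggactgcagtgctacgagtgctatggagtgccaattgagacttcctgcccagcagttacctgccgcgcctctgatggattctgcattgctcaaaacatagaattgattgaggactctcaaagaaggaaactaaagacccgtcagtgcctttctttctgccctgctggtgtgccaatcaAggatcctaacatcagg
Counted from 1 at the A of the start codon, the 9 differences from Ly6c1 to Ly6c2 are C8G, T10A, A16G, G31T, C36G, A65G, G254A, T327C and G376A. The longest stretch of identical coding bases is 188. Of the 673 windows of 150 bases, one read length, in the Ly6c2 transcript, 39 (5.8%) also occur in a Ly6c1 transcript. The 150-base reads were paired, and the deposited values of Ly6c1 and of Ly6c2 were not whole numbers in 15 libraries each. How the authors' counting shared reads that fit both genes is not known, so their low values are uncertain. Values that were not whole were also found for Ccr2, in 22 libraries, and for Vcan, in 2. How those reads were shared is not known either, and the ratios to Ccr2 below carry the same limit.

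The 2 promoters, shown because the pair differed in its time course, match less well than the coding bases. The 250 bases before the outermost RefSeq start (GRCm38.p6, minus strand, written in the direction of transcription) were aligned end to end. They had 164 identical bases, 52 mismatches and 68 gap positions, so 57.7% of aligned columns were identical. The 2 windows are not in register, as the first bases of the Ly6c2 window match bases inside the Ly6c1 window. The gap positions therefore include unpaired ends, and this share is not on the same measure as the match of the coding bases. Capitals mark GAGGAA or its reverse complement, TTCCTC, the core bound by PU.1, the transcription factor of the myeloid lineage.
Ly6c1, chr15:75048838-75049087: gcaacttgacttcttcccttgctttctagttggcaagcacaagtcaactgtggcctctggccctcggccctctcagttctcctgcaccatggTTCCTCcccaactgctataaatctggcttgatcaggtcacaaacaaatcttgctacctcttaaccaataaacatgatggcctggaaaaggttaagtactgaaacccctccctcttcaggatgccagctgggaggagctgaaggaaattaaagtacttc
Ly6c2, chr15:75111972-75112221: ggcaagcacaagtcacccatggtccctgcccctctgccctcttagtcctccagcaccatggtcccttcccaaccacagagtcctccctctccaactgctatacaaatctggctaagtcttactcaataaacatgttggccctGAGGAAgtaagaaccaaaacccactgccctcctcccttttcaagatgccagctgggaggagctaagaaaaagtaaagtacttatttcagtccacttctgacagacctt
Each of the pair held 1 such core in this window, its first base at position -158 from the start in Ly6c1 and at -108 in Ly6c2. The windows of second RefSeq starts held a further core at -127 in Ly6c1 and at -8 in Ly6c2. The 2 Ly6c2 windows overlap, and the core at -142 from the second start is the same site as that at -108. The core was also found before Ccr1 and Plac8, and in 23.3% of all 32851 RefSeq promoter windows of this length. It was not found in the windows of Ccr2, Cx3cr1, Cxcr4 and Vcan. The search also covered TTGCNNAA (C/EBP, 9.6% of windows), an IRF repeat (GAAA, 2 free bases, GAAA; 3.0%) and a PU.1-IRF composite (GGAA, 2 free bases, GAAA; 2.3%) on both strands, with overlaps allowed. TTGCNNAA was found once, at a second start of Plac8, and neither of the other pair in any of the 8 genes. These matches are a description of the letters.

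**Figure D1:**
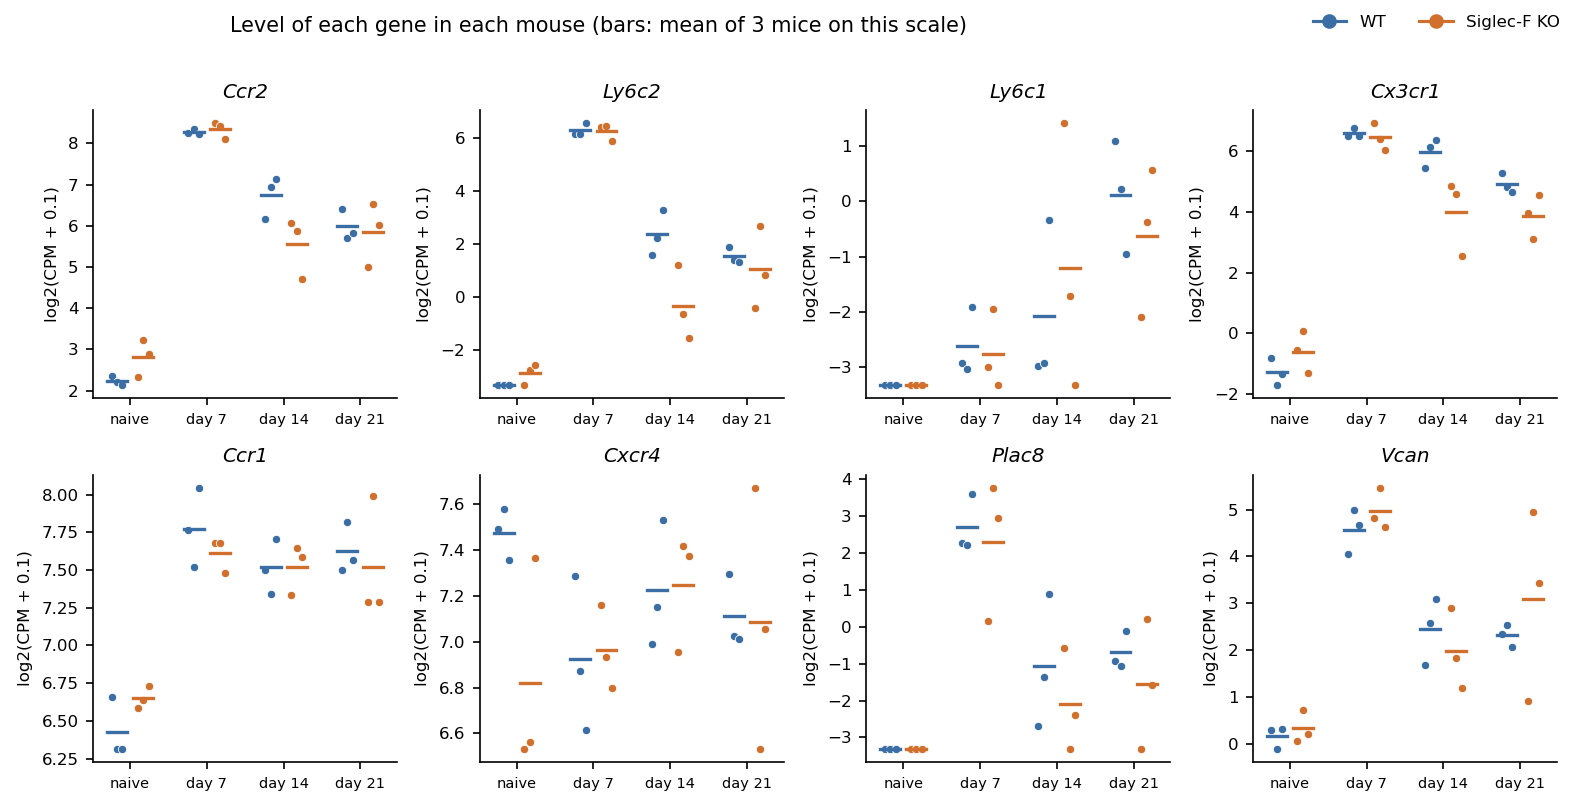
Level of each of the 8 genes in each mouse, as log2(CPM + 0.1), by time on the x axis and genotype by colour, with a bar at the mean of 3 mice. Ccr2, Ly6c2, Cx3cr1, Plac8 and Vcan are highest at day 7 in both genotypes, Ly6c1 is highest later, Ccr1 is higher in all bleomycin groups than in naive mice, and Cxcr4 overlaps between most groups.

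Ccr2, the receptor for CCL2 and CCL7 (chromosome 9, 124101950 to 124113557, plus strand), rose steeply by day 7 and came down again. In WT naive mice it measured 5.05, 4.49 and 4.3 CPM, and in WT mice 307, 324 and 302 CPM at day 7, 71.7, 124 and 140 CPM at day 14 and 85.6, 52.4 and 56.7 CPM at day 21. The naive mice lay below all bleomycin mice, and the 3 mice of day 7 lay above all mice of the later days. Ccr2 was 67.4-fold, 24.2-fold and 14.1-fold above the WT naive mean on days 7, 14 and 21 (log2 fold changes 6.08 with SE 0.42, 4.6 with SE 0.4 and 3.82 with SE 0.39, edgeR adjusted p 3.3e-09, 4.9e-08 and 4e-07). In KO mice the values were 4.9, 9.23 and 7.32 CPM when naive, 359, 346 and 274 CPM at day 7, 67.2, 58.4 and 26 CPM at day 14, and 32.1, 91.9 and 64.5 CPM at day 21. The KO mice of days 7, 14 and 21 stood 45.6-fold, 7.07-fold and 8.79-fold above KO naive mice, with edgeR adjusted p-values of 6.2e-09, 1.3e-05 and 3.5e-06. Ordered by mean, the groups ran KO day 7, WT day 7, WT day 14, WT day 21, KO day 21, KO day 14, KO naive and WT naive, and only the steps below WT day 7 and below KO day 14 were free of overlap.

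Cx3cr1 (chromosome 9, 119901616 to 120069879, minus strand) went from near absence to a plainly detected level. It measured 0.466, 0.206 and 0.297 CPM in WT naive mice, 90.5, 108 and 91.1 CPM at day 7, 43.4, 70.6 and 82.1 CPM at day 14 and 38.7, 27.9 and 25.2 CPM at day 21. These are rises of 299-fold, 202-fold and 94.8-fold (edgeR adjusted p 1e-08, 2.6e-08 and 1.6e-07), and no naive mouse overlapped a bleomycin mouse. In KO mice Cx3cr1 measured 0.575, 0.942 and 0.3 CPM when naive, 121, 85.5 and 65.7 CPM at day 7, 28.8, 23.8 and 5.71 CPM at day 14, and 15.5, 8.46 and 23.6 CPM at day 21. The KO rises were 150-fold, 32-fold and 26.2-fold (edgeR adjusted p 1.6e-08, 2e-06 and 3.2e-06). Per kilobase of exon, taking every annotated exon of a gene, Ccr2 stood at 46 CPM and Cx3cr1 at 21.4 CPM in WT mice at day 7.

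Ccr1, a receptor for CCL3, CCL5, CCL6 and CCL9 that macrophages keep, was already expressed in naive mice and rose less. WT naive mice had 101, 79.3 and 79.5 CPM, and the WT means after bleomycin were 221 CPM at day 7, 184 CPM at day 14 and 198 CPM at day 21. The rises were 2.55-fold, 2.13-fold and 2.29-fold in WT (edgeR adjusted p 5.3e-06, 6.5e-05 and 2.3e-05), and 1.95-fold, 1.83-fold and 1.88-fold in KO (0.00019, 0.0011 and 0.00058). Unlike Ccr2, Ccr1 stayed at 83.3% of its day 7 mean at day 14 in WT and at 93.9% in KO, and its change from day 7 was not called in either genotype (edgeR adjusted p 0.39 and 0.77).

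Cxcr4, the receptor for CXCL12 that holds leukocytes in bone marrow, did not pass the edgeR test on all mice at any day in either genotype. WT naive mice had 180, 191 and 164 CPM, and KO naive mice 92.3, 94.4 and 165 CPM, so that 2 of the 3 KO naive mice lay below all WT naive mice and the other lay just above the lowest of them. At day 7 the WT mice had 156, 117 and 97.9 CPM, below all WT naive mice, with a log2 fold change of -0.52 (SE 0.25, edgeR adjusted p 0.11). Without WT day 7 mouse 1 that change was -0.73 and was called (edgeR adjusted p 0.049). The WT change at day 21 was called with the compared groups alone (-0.35, edgeR adjusted p 0.037) and not with all groups in the fit (-0.36, 0.28). From day 7 on, the group means lay between 124 and 154 CPM in both genotypes.

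Ly6c2, the gene behind most Ly6C of classical monocytes, had a sharp peak at day 7. None of the 3 WT naive libraries held a count, which allows up to 3 counts over the group or 0.0272 CPM, and the KO naive libraries held 0, 2 and 3 counts. At day 7 Ly6c2 measured 70.8, 70.7 and 92.8 CPM in WT and 84.6, 87.4 and 59.2 CPM in KO. It was at least 2870-fold higher than in naive mice in WT, taking the naive group at 3 counts, and 1970-fold higher in KO with a naive group of 5 counts (edgeR adjusted p 2e-07 and 1.9e-07). At day 14 it measured 2.9, 4.5 and 9.55 CPM in WT and 2.22, 0.545 and 0.239 CPM in KO, and at day 21 it measured 3.6, 2.49 and 2.38 CPM in WT and 0.65, 6.29 and 1.68 CPM in KO. All these later values lay above the naive ones and far below day 7. Against naive mice they were at least 208-fold and 104-fold higher in WT (edgeR adjusted p 4.4e-05 and 0.00032) and 25.6-fold and 73.3-fold higher in KO (0.024 and 0.00061). The KO day 14 call was lost when any 1 KO naive mouse or KO day 14 mouse 1 was left out (edgeR adjusted p 0.06 to 0.22).

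Ly6c1 did not share that peak. No naive library held a count. At day 7 the WT libraries held 1, 1 and 6 counts and the KO libraries 1, 6 and 0, beside 2146 to 3356 counts of Ly6c2 in the same libraries. Per kilobase of exon that is 0.0438 CPM of Ly6c1 and 28.5 CPM of Ly6c2 in WT. The highest Ly6c1 values came later, with 2.02, 1.07 and 0.415 CPM in WT at day 21, 2.55, 0.205 and 0 CPM in KO at day 14 and 0.135, 0.672 and 1.37 CPM in KO at day 21. It was called higher than in naive mice in WT at day 21 (at least 43-fold, edgeR adjusted p 0.014) and in KO at days 14 and 21 (edgeR adjusted p 0.027 at both). The KO day 14 call rested on mouse 1, without which the adjusted p was 0.23, and both KO calls were lost without any 1 KO naive mouse, the day 21 call also without KO day 21 mouse 3 (0.076 to 0.081). In WT at day 14 it was not called with edgeR (adjusted p 0.07) but was with DESeq2 (0.016). In WT at day 21 Ly6c1 stood at 0.697 CPM per kilobase and Ly6c2 at 1.03 CPM per kilobase. Before this scaling the means were 1.17 and 2.83 CPM. The exon lengths used, 1677 and 2740 bases, take in every annotated exon of each gene. The transcripts compared above are nearly equal in length (695 and 673 windows of 150 bases), so the closeness per kilobase depends on the length used.

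Plac8, a small cysteine-rich protein of monocytes and other immune cells (chromosome 5, 100553725 to 100572245, minus strand), had 0 counts in all 6 naive libraries. At day 7 it measured 4.72, 4.61 and 12.1 CPM in WT and 1.01, 13.6 and 7.64 CPM in KO, at least 262-fold and 317-fold higher (edgeR adjusted p 0.00096 and 0.00075). Later values were low and uneven, from 0.0547 to 1.75 CPM in WT and from 0 to 1.07 CPM in KO. The WT calls at days 14 and 21 (edgeR adjusted p 0.027 and 0.04) were lost when any 1 WT naive mouse was left out, at day 14 also without WT day 14 mouse 3 and at day 21 without any 1 of the 6 mice (0.053 to 0.18). Plac8 was not called at days 14 and 21 in KO with edgeR (0.17 and 0.059), but was with DESeq2 (adjusted p 0.024 and 0.0045), and at day 21 with edgeR without KO day 21 mouse 1 (0.023).

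Vcan encodes versican, a large proteoglycan that binds hyaluronan and is made by monocytes (chromosome 13, 89655312 to 89742509, minus strand). It measured 1.13, 0.823 and 1.15 CPM in WT naive mice and 16.4, 31.6 and 25.2 CPM at day 7, a 23.6-fold rise (log2 fold change 4.56, SE 0.7, edgeR adjusted p 4.5e-05). In WT it measured 5.8 ± 2.66 CPM at day 14 and 4.92 ± 0.785 CPM at day 21, still 5.62-fold and 4.76-fold above naive mice (edgeR adjusted p 0.0081 and 0.016). The day 21 call was lost without WT naive mouse 2 (0.055). The KO mice had 0.943, 1.55 and 1.06 CPM when naive and 28.1, 44.1 and 24.5 CPM at day 7, a 27.2-fold rise (edgeR adjusted p 2.5e-05). At day 14 the KO mice had 7.36, 3.48 and 2.18 CPM, 3.67-fold the naive mean (edgeR adjusted p 0.06). That change was called with DESeq2 (adjusted p 0.027), and with edgeR on the compared groups alone (0.032), with mouse number as a block (0.044) and without KO day 14 mouse 3 (0.035). At day 21, 12.2-fold above naive mice (0.00056), the KO mice ranged from 1.79 CPM in mouse 1 to 30.8 CPM in mouse 2, which reached the level of day 7, with 10.7 CPM in mouse 3. The day 21 change in KO was not called with edgeR on the compared groups alone (adjusted p 0.05 after rounding).

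Counted over the 8 genes, 6, 6 and 7 were called higher than in naive mice in WT on days 7, 14 and 21 and none lower, where 20.2%, 18.7% and 18.8% of all tested genes were called higher and 15.3%, 13.4% and 13.7% lower. In KO 6, 5 and 6 were called higher and none lower, where 19.7%, 12.0% and 15.0% of all tested genes were called higher and 14.4%, 4.84% and 6.89% lower. The median log2 fold change of the 8 genes was 5.32, 5.4 and 5.21 in WT and 5.14, 3.65 and 4.16 in KO, against medians within 0.02 of 0 over all tested genes. These medians include fitted values for genes with 0 counts in naive mice, which depend on the prior count. Comparisons within a genotype share its naive mice. The genes were chosen with earlier results of these data known, so the shares describe the genes and are no independent support. Leaving out 1 library at a time gave 6 to 7, 5 to 6 and 5 to 6 calls in WT and 6, 3 to 6 and 5 to 7 in KO. With limma-voom Plac8 and Vcan were not called in WT at days 14 and 21, nor Ly6c1 and Ly6c2 in KO at day 14, nor Ly6c2 and Vcan in KO at day 21 (adjusted p 0.055 to 0.36).

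From day 7 to day 14 several of these genes came down. In WT Ccr2 (2.78-fold, edgeR adjusted p 0.013), Ly6c2 (13.8-fold, 0.0012) and Vcan (4.21-fold, 0.046) fell, so that 3 of 8 were called lower and none higher, where 3.2% of all tested genes were called lower and 2.65% higher. The Ccr2 change was not called without WT day 14 mouse 1 (log2 fold change -1.24 against -1.47 on all mice, edgeR adjusted p 0.083). The Vcan change was not called without any 1 of the 6 mice (log2 fold changes -2.45 to -1.77 against -2.07, edgeR adjusted p 0.056 to 0.18). In KO 5 of 8 fell and none rose, where 8.22% of all tested genes were called lower and 6.79% higher. They were Ccr2 (6.46-fold, edgeR adjusted p 8.7e-05), Cx3cr1 (4.67-fold, 0.0017), Ly6c2 (76.9-fold, 2.9e-05), Plac8 (33.4-fold, 0.017) and Vcan (7.43-fold, 0.0036). Of these, Plac8 was not called without KO day 7 mouse 2 or without KO day 14 mouse 2 or 3, nor with limma-voom (adjusted p 0.064 to 0.12). Cx3cr1 in WT kept 67.8% of its day 7 mean at day 14 (range over mice 45.0 to 85.1%) and its change was not called (log2 fold change -0.56, SE 0.41, edgeR adjusted p 0.47), while Ly6c2 kept 7.24% (3.71 to 12.2%) and Ccr2 36% (23.1 to 45.0%). In KO the same genes kept 21.4%, 1.3% and 15.5%. The fall of each gene was compared between genotypes in an interaction term: 0 of 8 were called, with 3 at an unadjusted p under 0.05, namely Ccr2 (edgeR adjusted p 0.65), Cx3cr1 (0.64) and Ly6c2 (0.64), among 877 of the 12634 tested genes, and 0.0% of all tested genes were called. DESeq2 and limma-voom also called 0 of the 8.

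**Figure D2:**
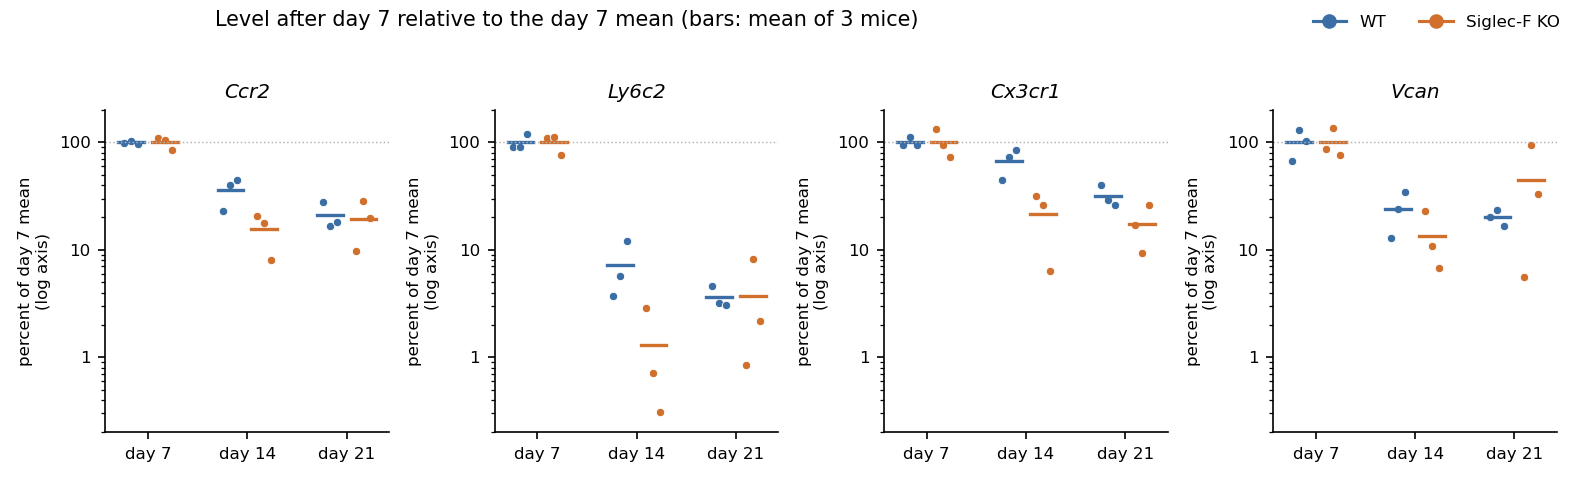
Level of Ccr2, Ly6c2, Cx3cr1 and Vcan in each bleomycin mouse as a percentage of the day 7 mean of its genotype (log axis), by day on the x axis and genotype by colour, with a bar at the mean of 3 mice. At day 14 Ly6c2 is at 7.24% in WT and 1.3% in KO, Ccr2 at 36% and 15.5%, and Cx3cr1 at 67.8% and 21.4%.

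Between days 14 and 21 none of the 8 genes was called in either genotype, where 0.0% of all tested genes were (edgeR). At an unadjusted p under 0.05 there were 2 of the 8 in WT, Ccr2 and Cx3cr1, both lower at day 21 (log2 fold changes -0.78 and -1.09), among 488 of all genes, and 2 in KO, Ly6c2 and Vcan, both higher (1.59 and 1.74), among 724. DESeq2 and limma-voom called 0 of the 8 in both.

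Between genotypes none of the 8 genes was called at any time (edgeR), where 0.546%, 0.00792%, 0.135% and 0.095% of tested genes were called in naive mice and on days 7, 14 and 21. At an unadjusted p under 0.05 there were 1, 0, 3 and 2 of the 8, and 1053, 580, 1269 and 1236 of the 12634 tested genes. At day 7 the 95% interval of the KO over WT log2 fold change, not adjusted for the number of genes, was -0.62 to 0.76 for Ccr2, -0.94 to 0.76 for Cx3cr1, -1.12 to 1.08 for Ly6c2 and -0.79 to 1.59 for Vcan. For Ccr1 it was -0.52 to 0.18 and for Cxcr4 -0.49 to 0.54. In naive mice Cxcr4 had a KO over WT log2 fold change of -0.6 (SE 0.25, edgeR adjusted p 0.47).

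At day 14 Ccr2, Cx3cr1 and Ly6c2 were each lower in all 3 KO mice than in all 3 WT mice, without passing the test. Their WT means were 2.21-fold, 3.37-fold and 5.64-fold the KO means, with log2 fold changes of KO over WT of -1.15 (SE 0.34, edgeR adjusted p 0.2), -1.76 (SE 0.43, 0.11) and -2.59 (SE 0.69, 0.16). Groups without overlap made up 15.5% of all tested genes in this comparison. Ccr1 and Cxcr4 had log2 fold changes of 0.0 (interval -0.35 to 0.35) and 0.02 (-0.5 to 0.53). DESeq2 and limma-voom called 1 of the 8, Cx3cr1, at adjusted p 0.046 and 0.034. Without KO day 14 mouse 1, the KO mouse with the highest Ccr2, Cx3cr1 and Ly6c2 of its group, edgeR called Cx3cr1 and Ly6c2 (adjusted p 0.026 and 0.022), with log2 fold changes of -2.15 and -3.87. At day 21 Cx3cr1 alone did not overlap between genotypes (WT mean 1.93-fold the KO mean, edgeR adjusted p 0.47), where 15.8% of all tested genes did not, and Vcan had a log2 fold change of 1.55 (SE 0.6, adjusted p 0.39) with the KO mice ranging over those of WT. The response to bleomycin, tested as the difference between genotypes of the change from naive mice, gave 0 of 8 calls on each day with edgeR. The shares called of all tested genes were 0.00792%, 0.332% and 0.332%, and 0, 2 and 1 of the 8 had an unadjusted p under 0.05, among 776, 1299 and 1361 of the 12634 genes. DESeq2 called 2 of the 8 at day 14, Ccr2 (adjusted p 0.03) and Cx3cr1 (0.034), and limma-voom called 0. The shares of all tested genes are those of edgeR on all mice. Shares under the other methods or without a mouse are not given, so those calls cannot be set against all genes.

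**Figure D3:**
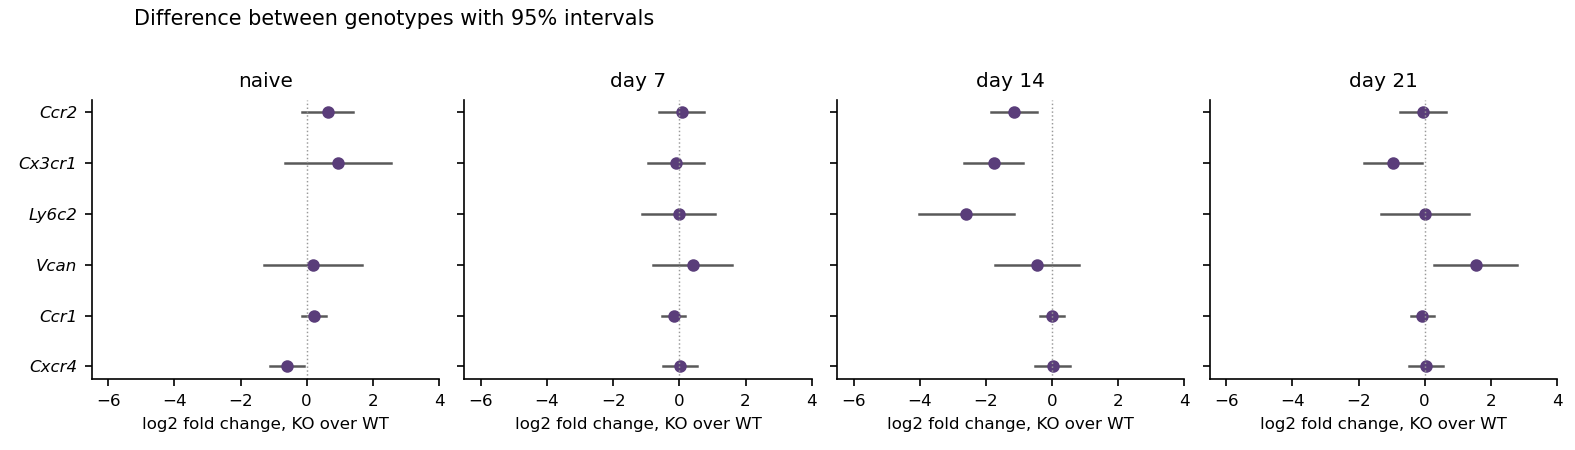
Log2 fold change of KO over WT for 6 of the genes at each time, as points with 95% intervals not adjusted for the number of genes; Ly6c2 in naive mice is not drawn because the WT naive group held 0 counts, and Ly6c1 and Plac8 are not drawn because of their low counts. At day 14 Ccr2, Cx3cr1 and Ly6c2 lie at -1.15, -1.76 and -2.59, and at day 7 all 6 points lie between -0.17 and 0.4.

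Many markers of other cells also differed between naive and bleomycin mice, not all in the direction or with the time course of these genes. Beside the counts of called genes in this and the later lists stand the shares over all tested genes. In WT at day 7 against naive mice 20.2% were called higher and 15.3% lower. From day 7 to day 14 the shares were 2.65% higher and 3.2% lower in WT, and 6.79% and 8.22% in KO. Of 14 genes of resident alveolar macrophages, such as Itgax, Ear2 and Chil3, 10 were called lower and 0 higher in WT at day 7 than in naive mice. Their summed level was 23100 to 30200 CPM in WT naive mice, 8290 to 10700 CPM in WT at day 7, 9870 to 15900 CPM in WT at day 14 and 14000 to 24900 CPM in KO at day 14. Within KO day 14, mouse 3 had the highest sum, 24900 CPM, and the lowest Ccr2, Cx3cr1 and Ly6c2 of the 3 mice. Mouse 1 had the lowest sum, 14000 CPM, and the highest of the 3 genes. All 11 tested genes of interstitial or recruited macrophages, among them C1qa and C1qb, were called higher in WT at day 7. Their sum was 12100 to 15800 CPM in WT and 11400 to 22900 CPM in KO at day 7. At day 14 it was 23800 to 33000 CPM in WT and 14600 to 29900 CPM in KO. The part that the mix of resident and recruited macrophages has in the values of the 8 genes was not tested.

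All 12 tested genes of T and NK cells were called higher in WT at day 7, with a summed level of 0.734 to 1.83 CPM in WT naive mice and 47.6 to 61.4 CPM at day 7. That sum was 39.4 to 78.4 CPM in WT and 22.5 to 38.3 CPM in KO at day 14. Il7r measured 32.9 ± 1.95 CPM and Cd3e 4.89 ± 1.41 CPM in WT mice at day 7. Conventional dendritic cell genes, of which 8 of 9 were called higher and 1 lower in WT at day 7, summed to 21.8 to 46.3 CPM in WT and 5.83 to 30.6 CPM in KO at day 14. Their defining gene Flt3 stood at 2.03 ± 1.39 CPM in WT at day 7. Neutrophil genes summed to 116 to 160 CPM in WT naive mice. At day 14 they summed to 226 to 301 CPM in WT and 197 to 372 CPM in KO. In WT at day 7 their sum was 153 to 186 CPM, and of 9 tested genes 4 were called higher and 1 lower. The granule gene Camp had 0 counts in every group. Plasmacytoid dendritic cell genes had 3 of 6 called higher, with the defining gene Siglech at 0.205 ± 0.281 CPM. B cell genes had 1 of 3 called higher and summed to at most 5.62 CPM in any library, and fibroblast genes to at most 3.37 CPM. Of 5 erythrocyte genes 1 was called higher. They summed to 0.0294 to 16.8 CPM in WT naive mice and 13 to 124 CPM in WT at day 7. At day 21 their sum was 100 to 352 CPM in WT and 15.1 to 63.6 CPM in KO. The part of blood cells in the values of the 8 genes was not tested. Neither fibroblast nor eosinophil, basophil and mast cell genes were called in WT at day 7. Dendritic, T and NK cells can carry some of the same receptors, and their part in the results was not tested.

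Ly6c1 is also expressed by endothelial cells, and its counts were few. The endothelial list, which holds Ly6c1 itself, summed to 0.0777 to 0.376 CPM in WT naive mice and to 2.2 to 10.3 CPM in WT at day 7, with 1 of 4 tested, Kdr, called higher. The other defining genes were low, with Cldn5 at 0 in every group, Cdh5 between 0 and 0.316 CPM and Pecam1 between 0.148 and 1.76 CPM in mean level. Kdr peaked at day 7 with 3.75 ± 3.27 CPM in WT, when Ly6c1 was at 0.0734 ± 0.0802 CPM. The endothelial list summed to 1.06 to 3.02 CPM in WT at day 14 and 3.12 to 3.84 CPM at day 21. In KO it summed to 0.511 to 4.15 CPM at day 14 and 0.352 to 3.6 CPM at day 21. Over the 24 mice the genes most like Ly6c1 were Myo5b (Pearson's r of log2(CPM + 1) 0.922), Ptprf (0.912) and the epithelial keratin gene Krt8 (0.905), and r was 0.909, 0.897 and 0.896 over the 18 bleomycin mice. Of 8 epithelial genes 4 were called higher and 2 lower in WT at day 7, and they summed to 243 to 280 CPM in WT naive mice and 89 to 229 CPM at day 7. Krt8 averaged 0.446 ± 0.418 CPM at day 7 and 3.04 ± 0.909 CPM at day 21 in WT. The part of endothelial or epithelial cells in the Ly6c1 counts was not tested.

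Within a library the ratio of 2 genes needs no scaling, and in WT mice Cx3cr1 was higher relative to Ccr2 on the later days. There were 29.5, 33.3 and 30.2 Cx3cr1 counts per 100 Ccr2 counts in the WT mice at day 7, 60.5, 56.9 and 58.7 at day 14, and 45.2, 53.3 and 44.5 at day 21. All WT mice of the later days lay above those of day 7, and each comparison of 3 mice against 3 gave an exact two-sided permutation p of 0.1, the smallest possible. In KO the ratios were 33.6, 24.7 and 24.0 at day 7, 42.8, 40.7 and 22.0 at day 14, and 48.4, 9.21 and 36.6 at day 21, so the later days overlapped with day 7. Over both genotypes the mean log2 ratio was 0.62 higher at day 14 than at day 7 (exact permutation p 0.037, 0.2 after adjustment over the 6 comparisons made). At day 21 it was 0.26 higher (exact permutation p 0.62). Without KO day 21 mouse 2, which had the lowest ratio of all bleomycin mice, it was 0.64 higher (unadjusted exact permutation p 0.0043). No other mouse brought this p under 0.05 when left out. A p-value without the most extreme mouse is no independent support. Within genotypes the day 21 difference was 0.62 in WT and -0.1 in KO, and the KO value became 0.63 without KO day 21 mouse 2.

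Relative to Ccr2, Ly6c2 was lower on the later days. It made 21.8 to 30.7 counts per 100 Ccr2 counts in WT and 21.6 to 25.3 in KO at day 7. At day 14 it made 3.63 to 6.84 in WT and 0.922 to 3.31 in KO, and at day 21 4.2 to 4.76 and 2.02 to 6.85. No mouse of the later days overlapped with day 7, and at day 14 the genotypes did not overlap with each other. This ratio was chosen after its values were seen and has no test.

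**Figure D4:**
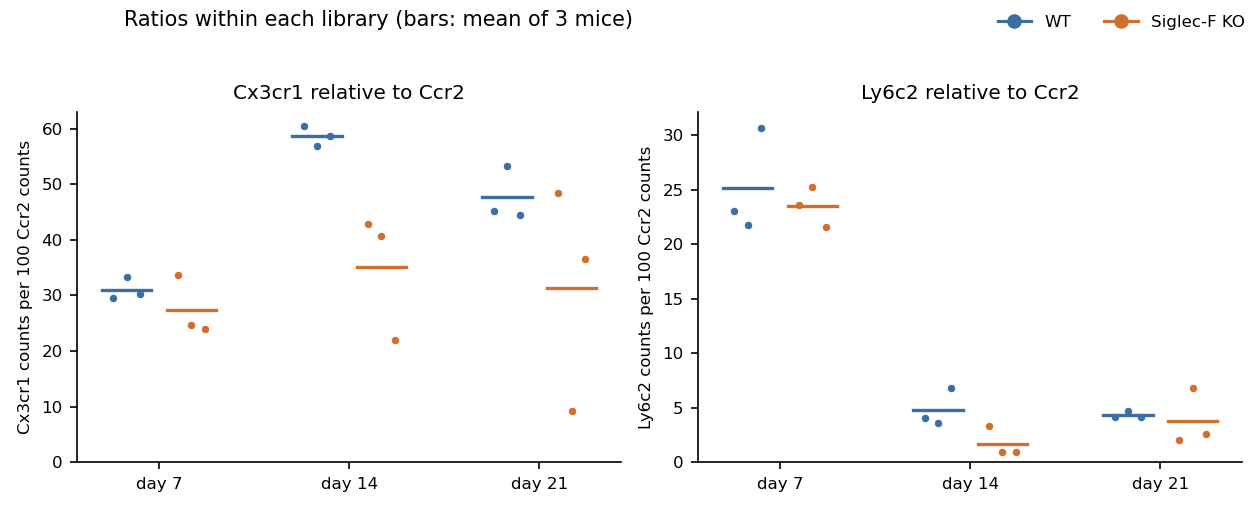
Counts of Cx3cr1 (left) and Ly6c2 (right) per 100 counts of Ccr2 in each bleomycin mouse, by day on the x axis and genotype by colour, with a bar at the mean of 3 mice. In WT the Cx3cr1 ratio is 29.5 to 33.3 at day 7 and 56.9 to 60.5 at day 14, KO day 21 mouse 2 is the lowest of all at 9.21, and the Ly6c2 ratio is above 21 in every mouse at day 7 and below 7 in every later mouse.

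The ligands of these receptors were measured in the same bulk samples. Of 9 ligand genes 8 were tested, and in WT at day 7 6 were called higher and 1 lower than in naive mice. Ccl2, the main ligand of CCR2, went from 0.101 ± 0.0143 to 60.6 ± 28.8 CPM (599-fold, edgeR adjusted p 3.7e-06), and Ccl9, a ligand of CCR1, from 26.2 ± 7.99 to 346 ± 98.1 CPM (13.2-fold, 1.5e-07). Ccl7 rose from 0.0294 ± 0.0509 to 32.4 ± 17.2 CPM. Cx3cl1, the membrane-bound ligand of CX3CR1, fell from 75 ± 5.19 to 21.8 ± 2.25 CPM (edgeR adjusted p 0.00022). Cxcl12, the ligand of CXCR4, was below the filter and at most 0.137 CPM in mean level. At day 14 Ccl2 measured 5.21 ± 2.32 CPM in WT and 1.87 ± 1.86 CPM in KO. In KO mice from day 7 to day 14 5 of the 8 ligands were called lower, including Ccl2, Ccl7 and Ccl12 (edgeR adjusted p 0.00033, 4.1e-05 and 0.0019), and 1 higher, in WT 2 lower and 0 higher.

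Of 24 other receptors of chemokines and chemoattractants 16 were tested, and 9 were called higher and 4 lower in WT at day 7 than in naive mice. Cmklr1, the chemerin receptor, went from 0.221 ± 0.286 to 94.5 ± 9.68 CPM (428-fold, edgeR adjusted p 1.8e-08), and Cxcr6 from 0 counts to 1.72 ± 0.43 CPM. None of the 16 was called between day 7 and day 14 in WT, and in KO 2 were lower and 1 was higher.

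Of 18 tested classical monocyte genes beyond the 8, 13 were called higher and 1 lower in WT at day 7. F13a1, the coagulation factor XIII A chain, went from 0.137 ± 0.0702 to 80.6 ± 11.6 CPM (588-fold, edgeR adjusted p 3.3e-09), Itgam, the CD11b integrin chain, from 4.2 ± 0.706 to 351 ± 61.3 CPM, and Ms4a6c from 24.3 ± 2.74 to 211 ± 13.9 CPM. From day 7 to day 14, 2 were called lower and 2 higher in WT, and 8 lower and 2 higher in KO, with Ifitm3, Itgam and Ms4a4c among the lower ones (edgeR adjusted p 4.9e-05, 0.00022 and 0.00033 in KO) and Mgst1 higher. F13a1 in WT was at 60.1 ± 8.6 CPM at day 14 and 60.7 ± 17.7 CPM at day 21. In WT the whole classical list summed to 6320 to 9700 CPM at day 7 and 7520 to 11800 CPM at day 14. In KO these sums were 7650 to 11600 CPM and 8550 to 11900 CPM. The 14 nonclassical monocyte genes were split, with 4 called higher and 6 lower in WT at day 7, the smallest p-values being those of Ear2, Cd36 and Itgal, all lower. Ear2 is also a gene of resident alveolar macrophages.

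The genes most like each of the other members over the 24 mice, by Pearson's r of log2(CPM + 1), are a description without a test. All of them share the step from naive to bleomycin mice, so r over the 18 bleomycin mice is given second. Closest to Ccr2 were Nfatc2 (0.987 and 0.975), Itgam (0.986 and 0.96) and AA467197 (0.986 and 0.977). Closest to Ly6c2 were Ms4a4c (0.982 and 0.975), Amica1 (0.981 and 0.972) and Tmem119 (0.981 and 0.971). Tmem176b (0.988 and 0.958), Tmem176a (0.987 and 0.943) and Abcb1b (0.984 and 0.924) were closest to Cx3cr1. For Vcan they were Mthfd1l (0.957 and 0.93), Socs6 (0.943 and 0.939) and Irf5 (0.943 and 0.897), and for Plac8 Htr7 (0.938 and 0.936), Mefv (0.933 and 0.916) and Gbp4 (0.923 and 0.926). For Ccr1 the likeness fell within the bleomycin mice, as with Abtb2 (0.949 and 0.677), Il7r (0.94 and 0.563) and Tnfsf14 (0.938 and 0.645). The values for Cxcr4 were lower, the highest being Otud1 (0.829 and 0.764), Dusp1 (0.751 and 0.686) and Mynn (0.733 and 0.644).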

How the data were processed

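Libraries were made from 200 ng of RNA with a Universal Plus mRNA-Seq kit and sequenced as 150 bp pairs, per the labels' protocols. The deposited table holds the authors' expected counts per gene in a column for each mouse. The labels list 2 runs for a mouse and do not say whether its column sums both. The submitters' processing notes name mm10, bcl2fastq, DESeq2 1.42.0 and limma 3.58.1, while the aligner, the counting tool and strand use were not given in the sources used here. A further 24 columns of other samples were not used. Of the entries 3.11 to 3.85% were not whole, and counts were rounded.

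Genes passed edgeR 4.0.16 filterByExpr (minimum count 10, minimum total 15), were scaled with TMM and fitted in 1 quasi-likelihood model with a mean per group (R 4.3.3, 16 residual degrees of freedom, threshold 0.05). Where a group held 0 counts, folds are against 3 counts over the group, which covers counting error only, since reads without molecular identifiers are not independent molecules. The labels number the mice but do not say that a number marks a shared litter or day, so p-values measure the spread between mice. Mice of a group differed by far more than counting noise (chi-square per degree of freedom 13.1 to 215.5). Ratios were compared with exact permutation tests (SciPy 1.17.1). Positions are from GENCODE M21 and promoters from RefSeq, both on GRCm38. The pipeline was tested on simulated counts. The 8 genes and the gene lists were chosen with earlier results of these data known. Besides the 8, genes were named by rule: up to 3 called genes of a list with the smallest p, defining markers of other cells, and the 3 genes with the highest r to each of the 8. Cx3cl1 and Cxcl12 fall outside it and were chosen after their values were seen. Alternatives were DESeq2, limma-voom, RLE scaling, no filter, the compared groups alone, a block for mouse number, offsets of 0 and 5 counts in the ratio, and leaving out each mouse.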

Additional observations from a re-analysis of the deposited data

How the results depend on the processing

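Of the counts of called genes and the ratios, 296 values under an alternative were taken as kept and 22 were not. A count was kept when it stayed within 1.5 times the main count. A ratio was kept when it held its sign and its side of the threshold, and 2 of the 22 changed sign. For KO against WT at day 14, 1 of the 8 genes was called with DESeq2, 1 with limma-voom and 0 to 2 when a mouse was left out, against 0 with edgeR on all mice. For KO day 14 against naive, limma-voom called 3 and leaving out a mouse gave 3 to 6, against 5. For the response difference at day 14, DESeq2 called 2, against 0. For WT day 14 against day 7, leaving out a mouse gave 1 to 2, against 3. Shares called over all tested genes are not given for these alternatives. The log2 ratio of Cx3cr1 to Ccr2 at day 14 against day 7 over both genotypes (0.62) ranged from 0.53 to 0.82 without 1 mouse, with an exact permutation p above 0.05 in 9 of 12 cases (0.052 to 0.074). At day 21 over both genotypes it ranged from 0.14 to 0.64. In KO at day 21 it ranged from -0.56 to 0.63 and changed sign without KO day 21 mouse 2 (0.63) or KO day 7 mouse 1 (0.06). The causes were not tested.

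Mice with the same number did not deviate together (median r -0.01 to 0.02, 8 of 24 libraries closest to their own number), so the numbers were not taken to pair the mice. With mouse number as a replicate block, 6, 6 and 7 of the 8 genes were called against naive in WT and 6, 6 and 6 in KO. The one change was Vcan in KO at day 14, called with the block (log2 fold change 1.97, edgeR adjusted p 0.044) and not without it (1.86, 0.06). Depth limits Ly6c1 and Plac8, which held few counts in most libraries.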

Other observations

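In the Ly6 family, 7 of 12 genes in the table were tested and 6 were called higher in WT at day 7 than in naive mice. Ly6a, the stem cell antigen Sca-1, had 0 counts in the naive libraries of both genotypes and reached 13.8 ± 1.92 CPM in WT at day 7 (edgeR adjusted p 6.8e-06), then 2.99 ± 1.6 CPM at day 14. In KO it went from 18.6 ± 13.6 CPM at day 7 to 1.07 ± 0.762 CPM at day 14 (edgeR adjusted p 0.0012). Ly6e, already abundant in naive mice at 503 ± 123 CPM, rose to 1110 ± 109 CPM. Ly6c1 was the 1 tested gene of the family that was not called at day 7.

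Of 19 tested genes of receptor desensitisation and chemotaxis 5 were called higher and 4 lower in WT at day 7. Over all tested genes 20.2% were called higher and 15.3% lower in that comparison, so these counts do not set the list apart. Arrb1, the arrestin that binds activated chemokine receptors, went from 23.3 ± 4.29 to 97.3 ± 10 CPM (4.17-fold, edgeR adjusted p 2.9e-08). Rgs18, a regulator of G protein signalling, went from 0.00979 ± 0.017 to 2.99 ± 0.975 CPM. Of 12 monocyte transcription factors 3 were called higher and 4 lower, with Irf5 (2.36-fold) and Irf4 (3.74-fold) higher and Cebpa lower (log2 fold change -0.47). Irf4 and Irf5 fell from day 7 to day 14 in KO (edgeR adjusted p 0.0028 and 0.0041). Of 18 versican and hyaluronan genes 5 were tested, 1 of them (Hmmr) called higher and 1 (Cd44, the hyaluronan receptor) lower in WT at day 7.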
